A study of Mus musculus with 10 samples.

Results

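Wild-type Hb9-GFP retinal ganglion cells of postnatal day 6 mice were profiled in 5 RNA-seq libraries, which are 5 of the 10 libraries of the series; the other 5, from mice lacking Satb1, are not described here. Each library came from about 1000 cells. The members are the libraries whose labels give the genotype WT Hb9, and no comparison of genotypes was made. The mice were of the strain C57BL/6 and carried the Hb9-GFP reporter, a green fluorescent protein driven by Hb9 (the gene Mnx1). Retinae were dissociated, and GFP-labelled cells were collected by flow cytometry. The 5 samples, called libraries 1 to 5 after their replicate numbers, came from different litters, and their cDNA was amplified before the libraries were made. The reporter chose the cells, so the libraries hold whatever that gate let through, and the values are averages over all cells of a sort.

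Retinal ganglion cells are the output neurons of the retina: they receive input from bipolar and amacrine cells and send glutamatergic axons through the optic nerve to the brain. Hb9-GFP labels ON-OFF direction-selective ganglion cells, which fire most for motion in 1 preferred direction and receive inhibition from starburst amacrine cells. Before eye opening these cells extend and refine axons and dendrites, form synapses, and take part in waves of spontaneous activity that are driven by acetylcholine.

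Values are TPM, a transcript level scaled for transcript length and for the library's total, so the symbols of a library sum to 1000000 TPM. Levels of different genes are thus on 1 scale. Differences between libraries still ran with GC content and length, as described below, and the part of this in orders between genes was not tested. Of 23258 symbols, 8809 reached 1 TPM in all 5 libraries, which is 37.9% of all symbols, and of 20233 protein-coding symbols 8545 did, which is 42.2%. A symbol that met this rule is called expressed throughout. Counts for lists, families and functional groups below are to be set beside the 37.9% and the 42.2%, since a count near them says little about its group. The number of symbols that reached 1 TPM in no library was 8429, and 1701 reached it in 4 of the 5. Single libraries held between 11119 and 12555 symbols at 1 TPM or more. Library 5 stood apart from the other 4 in the share of its most abundant symbols. Libraries 3, 4 and 5 differed from the others in some transcripts of other cell types, as the values below show.

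The first question was whether the sorted cells carried the transcripts that define the labelled cell type. Rbpms, an RNA-binding protein found in ganglion cells and in no other neuron of the retina, stood at 1672, 1380, 952, 1767 and 374 TPM in libraries 1 to 5. Slc17a6, the vesicular glutamate transporter of ganglion cells, stood at 726, 469, 662, 237 and 67.8 TPM. Pou4f1, a POU homeodomain factor of ganglion cells, stood at 371, 326, 317, 194 and 37.4 TPM. All 3 were present in every library and lowest in library 5. Cartpt, a neuropeptide precursor that marks ON-OFF direction-selective cells, stood at 394, 609, 843, 56.8 and 501 TPM, with library 4 far below the other 4. Satb1, a chromatin organizer expressed in the same cells, stood at 304, 189, 414, 132 and 38.6 TPM, again lowest in library 5. Mnx1, whose regulatory sequence drives the reporter, was low in comparison, at 1.47, 8.04, 6.21, 0 and 3.42 TPM, and was listed at 0 in library 4. Hb9-GFP fluorescence was the sorting criterion, so the endogenous Mnx1 transcript and the reporter are not the same measure.

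The regulatory sequence just before the start of 4 of these defining genes is shown because their levels are the check on the label; the comparison of such sequences over all genes follows further below. Each is the stretch of 250 bases before the first start listed for the gene, from RefSeq on GRCm38.p6 (mm10), written 5′ to 3′ on the strand of the gene, with every CG dinucleotide in capitals. Cartpt lies on the minus strand, at chr13:99900684-99900933, Satb1 on the minus strand, at chr17:51833291-51833540, Pou4f1 on the minus strand, at chr14:104468000-104468249, and Slc17a6 on the plus strand, at chr7:51621580-51621829. RefSeq holds several transcripts of these genes, and the gene's annotated span can begin upstream of the start used: the Cartpt window lies inside the span of its gene (chr13:99898483-99910179) and the Pou4f1 window overlaps that of its own (chr14:104461675-104468118).
Cartpt: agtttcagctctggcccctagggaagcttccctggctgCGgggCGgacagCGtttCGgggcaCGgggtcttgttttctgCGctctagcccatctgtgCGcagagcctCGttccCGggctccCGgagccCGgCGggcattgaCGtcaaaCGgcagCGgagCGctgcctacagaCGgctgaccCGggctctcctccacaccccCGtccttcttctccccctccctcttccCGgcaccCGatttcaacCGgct
Satb1: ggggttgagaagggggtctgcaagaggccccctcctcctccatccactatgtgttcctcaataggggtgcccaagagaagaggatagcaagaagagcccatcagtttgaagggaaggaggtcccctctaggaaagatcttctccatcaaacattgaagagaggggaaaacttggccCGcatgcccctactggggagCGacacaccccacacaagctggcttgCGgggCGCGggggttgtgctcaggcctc
Pou4f1: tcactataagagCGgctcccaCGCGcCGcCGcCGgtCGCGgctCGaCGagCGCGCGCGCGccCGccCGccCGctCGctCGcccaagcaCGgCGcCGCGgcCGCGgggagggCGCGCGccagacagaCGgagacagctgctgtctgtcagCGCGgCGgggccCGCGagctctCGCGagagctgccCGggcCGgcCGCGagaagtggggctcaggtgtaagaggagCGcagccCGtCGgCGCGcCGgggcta
Slc17a6: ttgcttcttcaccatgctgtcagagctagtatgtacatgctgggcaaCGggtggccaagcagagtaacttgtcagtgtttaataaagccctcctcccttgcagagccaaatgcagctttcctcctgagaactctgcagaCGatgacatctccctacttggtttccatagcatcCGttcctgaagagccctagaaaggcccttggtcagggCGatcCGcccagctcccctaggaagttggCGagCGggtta
The count of CG dinucleotides was 22 before Cartpt, 5 before Satb1, 47 before Pou4f1 and 7 before Slc17a6. The sequences of these 4 genes of 1 cell type thus ranged from CG-poor to very CG-rich.

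The wider ganglion cell lists were present as well. Of 23 pan-ganglion cell symbols, 22 were expressed throughout, and the exception was Atoh7, a factor of ganglion cell birth, which was listed at 0 in all libraries but library 4, where it stood at 22.2 TPM. The summed TPM of that list lay between 20724 and 35181. Of 12 symbols known from ON-OFF direction-selective cells, 10 were expressed throughout, with sums between 1399 and 2497 TPM. Mnx1 was among the exceptions. Calb2, the calcium-binding protein calretinin, had the highest median of the 12, at 545, 610.5, 673, 383 and 807 TPM, although Cartpt was higher in library 3. Cdh6, a cadherin of these cells, stood at 309, 207, 101, 75.2 and 104 TPM, and Col25a1, a transmembrane collagen, at 47.5, 67.2, 55.2, 1.96 and 4.04 TPM, so that Col25a1 was near the threshold in libraries 4 and 5 only. Of 16 symbols that mark other ganglion cell subtypes, 5 were expressed throughout. The share was 37.9% of all symbols and 42.2% of protein-coding ones, so no depletion of other subtypes is read from this count. Opn4, the photopigment of intrinsically photosensitive cells, did not exceed 8.02 TPM, and Eomes, a factor of the same cells, did not exceed 5.94 TPM. Npy, a neuropeptide on that list, was high in every library, at 465, 417, 239, 191 and 1011 TPM.

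Transcripts of other cell types were present in amounts that differed between libraries. Symbols that define other retinal neurons were at or near 0: Gad1 and Slc32a1, needed to make and load GABA, did not exceed 0.0353 and 0.582 TPM, Chat, the acetylcholine-synthesizing enzyme of starburst cells, did not exceed 1.68 TPM, and Grm6, the receptor of ON bipolar cells, was listed at 0 in all 5. Rod photoreceptor symbols (16) summed to 17.0, 25.3, 16.7, 506 and 673 TPM in libraries 1 to 5. Pde6g, a subunit of the rod phosphodiesterase, stood at 0, 1.56, 1.01, 192 and 189 TPM, so libraries 4 and 5 stood apart from libraries 1 to 3. Cone symbols (11) summed to 389 TPM in library 5 and to between 33.4 and 72.5 TPM in the others. Microglia and macrophage symbols (18) summed to 1489, 1194, 41.3, 3972 and 906 TPM, with 17, 17, 5, 18 and 16 of them at 1 TPM or more. Csf1r, the receptor that microglia need to survive, stood at 154, 223, 0.0843, 228 and 23.2 TPM, and Tyrobp, an adaptor of their surface receptors, at 192, 103, 0, 428 and 263 TPM, so library 3 was nearly free of them. Expressed symbols that are also on the list of another cell type were few among the classes described below: Isl1, Onecut1, Pax6 and Thrb among transcription factors, and Grik1 and P2ry12 among receptors. In bulk samples, fewer cells of a type and less RNA per cell cannot be told apart. The part of these transcripts in the levels below was not tested.

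**Figure D1:**
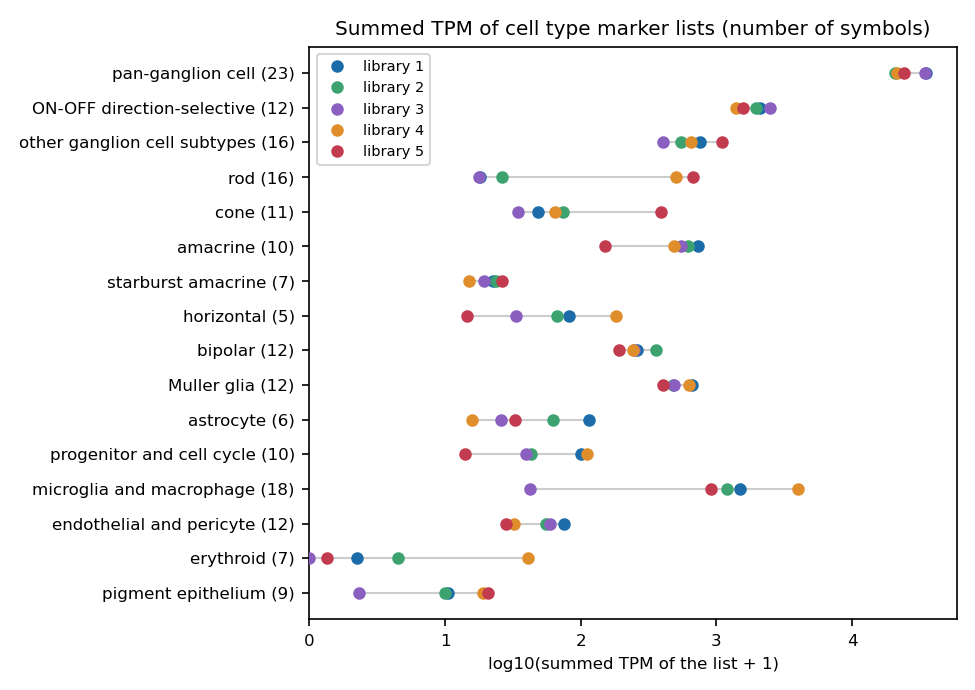
Summed TPM of each marker list (rows, number of symbols in brackets) in each of the 5 wild-type libraries (coloured points) as log10 of the sum plus 1; grey lines span the lowest to the highest library. The pan-ganglion cell list sits highest in every library, the rod list splits libraries 4 and 5 from libraries 1 to 3, and the microglia and macrophage list is low in library 3.

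The libraries differed in make-up, and in library 5 the most abundant symbols took the largest share. Its 10 most abundant symbols took 33.0% of the TPM and those of libraries 1 to 4 took 14.9% to 21.7%, and 51.3% of the 8809 symbols expressed throughout had their lowest value there. Each library was then rescaled to the same median, taken over symbols with a nonzero level in all 5 libraries. The factors were 0.74, 0.85, 0.91, 1.14 and 2.01, and the share of symbols lowest in library 5 was then 27.2%. Among the genes described below or above as lowest in library 5, 21 were checked after rescaling. Others, such as Pax6, Stmn2 and Ptprg, were not among them. Of the 21, 16 remained lowest there, and the exceptions were Snap25, Klf7, Gabrg3, Cacng7 and Scn8a. The departures ran with base composition. Among 8520 protein-coding symbols with a GENCODE transcript, the symbols with the lowest GC content (the lower quartile) had a median difference of -1.94 between library 5 and the mean of the other 4, on the log2(TPM + 1) scale, and those of the upper quartile had one of 0.17. In library 1 the order was the opposite, with 1.06 for the lower quartile and -0.09 for the upper. Across genes, which are not independent replicates, Spearman's rank correlation between GC content and a library's departure was -0.404, -0.268, -0.250, 0.139 and 0.562 in libraries 1 to 5, and between transcript length and the departure it was 0.210, 0.0862, 0.0551, 0.0336 and -0.300. A library's departure shares its values with the mean it is set against, so the 5 numbers are linked. Members of the classes described below were longer than the 2374 bases of the median expressed symbol, with medians of 2725 bases for transcription factors, 3231 for receptors, 3700 for channels and 3805 for adhesion genes. The part of GC content and length in the levels of single genes was not tested.

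**Figure D2:**
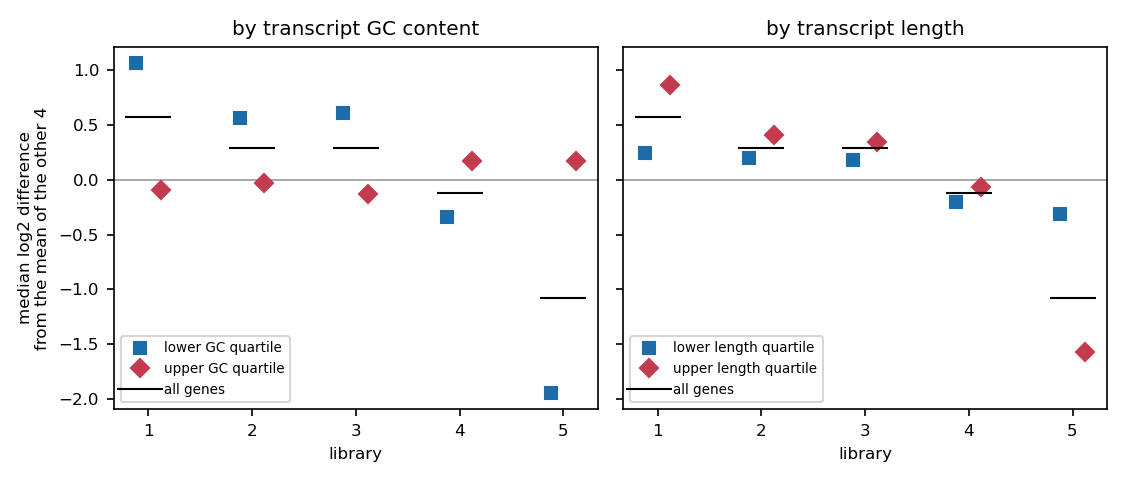
Median departure of each wild-type library from the mean of the other 4, in log2(TPM + 1), for all expressed protein-coding symbols (black bars) and for the outer quartiles by GC content (left) and length (right) of the transcript. Library 5 lies at -1.94 for the lower GC quartile and at 0.17 for the upper one; libraries 1 to 3 show the opposite order.

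Several of the highest protein-coding medians belonged to genes of the neuronal cytoskeleton. Tuba1a, an alpha-tubulin of growing axons (chr15:98949847-98953501, minus strand, GRCm38.p6), had the highest protein-coding median, at 10704, 14555, 25569, 14453 and 159316 TPM in libraries 1 to 5, although Nefl was higher in library 1 and Lars2 in library 4. Library 5 alone accounts for the upper end: there Tuba1a took 15.9% of all TPM. Tubb2b, a beta-tubulin of immature neurons, stood at 4807, 2986, 10135, 11314 and 20233 TPM, and Tubb4a, another beta-tubulin, at 12817, 3087, 8349, 11115 and 4500 TPM. Tubb3, the beta-tubulin often used to mark neurons, was lower than Tubb2b in every library, at 731, 1196, 1638, 1834 and 6886 TPM. Tubulins are close paralogs, and the way reads that fit several of them were divided is not known here, which leaves the order among them uncertain. Nefl, the light neurofilament subunit, stood at 17244, 7131, 19151, 8529 and 6422 TPM, well above Nefm (5568, 1539, 2729, 474 and 1202 TPM) and Nefh (99.01, 41.6, 91.9, 3.09 and 22.7 TPM), the medium and heavy subunits that join it as axons mature. The order of the 3 subunits was the same in all 5 libraries. Mtap1b (Map1b), a microtubule-associated protein of growing axons, stood at 4265, 2570, 3159, 1281 and 343 TPM, lowest in library 5.

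Snap25, the membrane SNARE protein of transmitter release, had the second highest protein-coding median, at 16028, 10615, 21003, 7521 and 4516 TPM, with library 5 lowest. Rtn1, a reticulon of the neuronal endoplasmic reticulum, stood at 6558, 5627, 16675, 8156 and 2136 TPM. Pcp4, a small calmodulin regulator, stood at 4703, 5245, 9229, 2819 and 5962 TPM and Calm2, a calmodulin, at 5240, 7626, 12845, 4753 and 1532 TPM. Of these, Pcp4 varied least, and its highest and lowest libraries were 3 and 4. Sncg, gamma-synuclein, a marker of ganglion cells, stood at 1010, 2176, 1190, 1943 and 3953 TPM and Thy1, a surface glycoprotein used to purify them, at 952, 1329, 1203, 1235 and 1969 TPM. Both were highest in library 5, where Rbpms, Slc17a6 and Pou4f1 were lowest. Lars2, a mitochondrial leucyl-tRNA synthetase, was listed among the leading protein-coding symbols at 8446, 10322, 5696, 28346 and 25092 TPM. Transcripts outside messenger RNA also ranked high. Rn45s, the precursor of ribosomal RNA, took between 1.88% and 11.7% of the TPM. Gm20594, a predicted gene with the RefSeq synonym Mtrnr2l, stood at 35151, 26858, 43432, 14509 and 2705 TPM, and 42 of the 419 words of 31 bases in its 449-base transcript also occur in mt-Rnr2, the mitochondrial large ribosomal RNA, so reads of that RNA could be counted there. The symbols matched as mitochondrially encoded numbered 0, so these ranks and the shares below give no level for such transcripts.

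**Figure D3:**
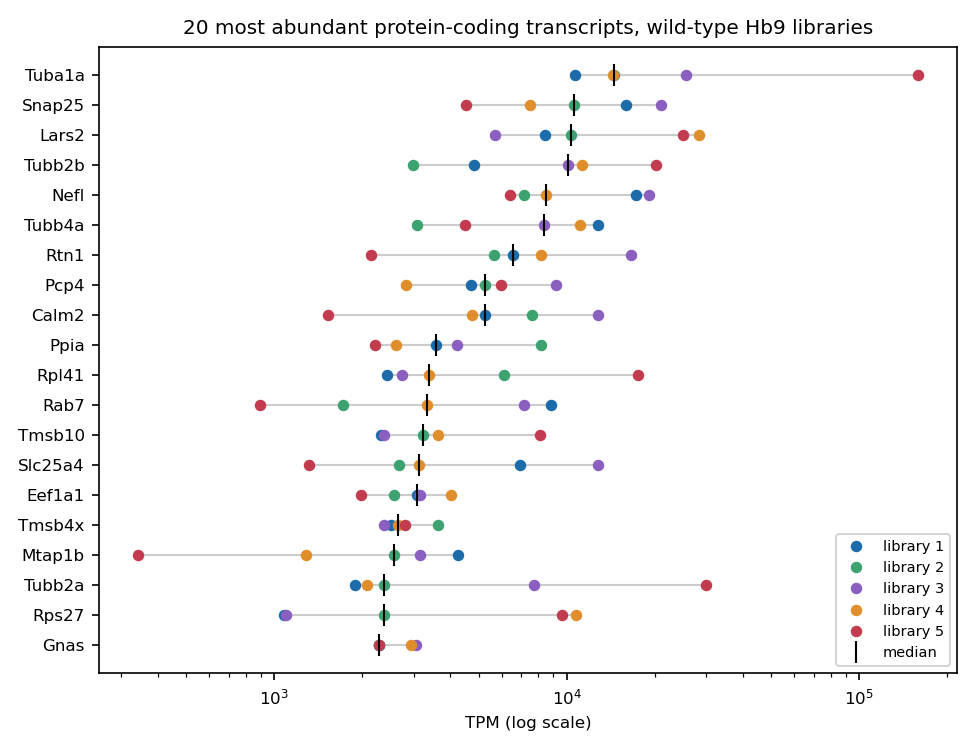
TPM (log axis) of the 20 protein-coding symbols with the highest median in the 5 wild-type libraries; coloured points are libraries, black ticks medians and grey lines the range. Tuba1a reaches 159316 TPM in library 5, and Gnas and Tmsb4x lie close together in all 5.

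Predicted, clone and small RNA symbols took 11.1%, 19.7%, 10.6%, 13.5% and 9.07% of the summed TPM in libraries 1 to 5. Among the groups defined by function, the largest were cytosolic ribosomal proteins and tubulins with their microtubule partners. Each of these took less than the predicted, clone and small RNA symbols in libraries 1 to 4 and more in library 5. Ribosomal proteins took 4.56%, 5.37%, 4.004%, 6.67% and 12.8% in libraries 1 to 5, and 81 of their 87 symbols were expressed throughout. Tubulins and microtubule proteins took 4.81%, 3.81%, 7.06%, 5.27% and 23.7%, with 45 of 79 symbols expressed throughout. Both shares were highest in library 5, and so was that of nuclear-encoded oxidative phosphorylation, at 5.35% against 2.71% to 3.42% elsewhere. Synaptic vesicle and SNARE symbols took 2.84%, 2.16%, 3.25%, 1.62% and 0.914%, lowest in library 5, with 51 of 72 expressed throughout. Growth cone symbols, which include Gap43 and the stathmins, took between 1.496% and 3.37%, with 17 of 19 expressed throughout. Gap43, a growth cone membrane protein, stood at 1131, 989, 1370, 672 and 1380 TPM, and Stmn2, a tubulin-binding protein of growing axons, at 2459, 1767, 2596, 1822 and 569 TPM. Actin cytoskeleton symbols varied less, from 1.25% to 1.71%. Immediate early genes, which neurons switch on with activity or dissociation, took 0.0137% to 0.0432%, and 4 of 21 were expressed throughout. Egr1, 1 of them, stood at 14.4, 46.3, 1.07, 46.5 and 24.9 TPM and was near the threshold in library 3.

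**Figure D4:**
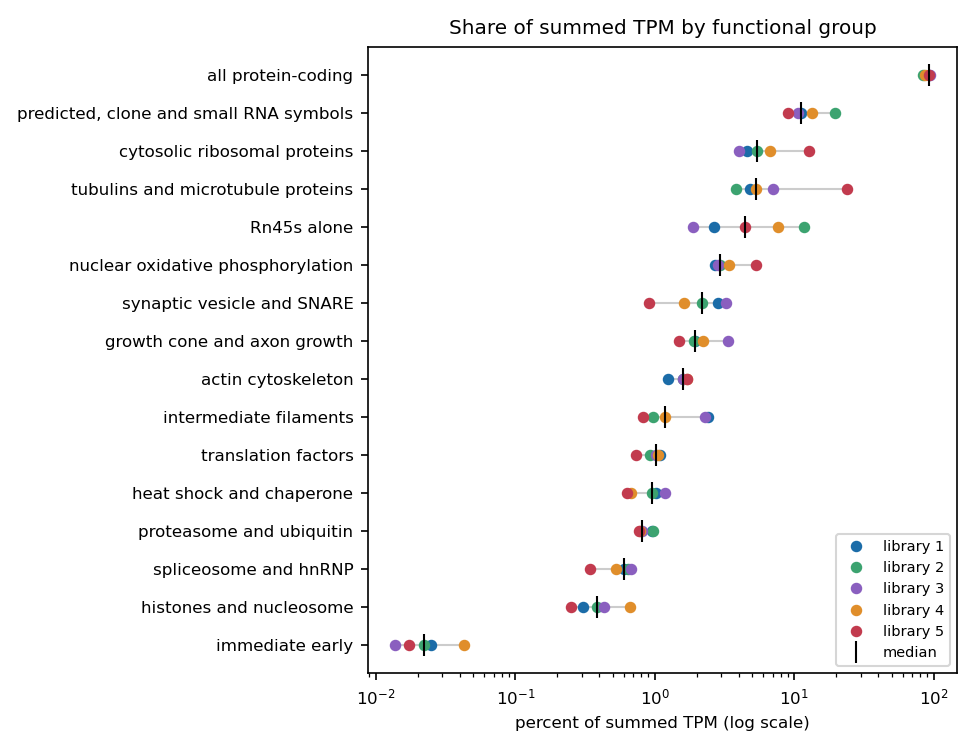
Percent of the summed TPM (log axis) taken by each functional group in the 5 wild-type libraries; coloured points are libraries and black ticks medians. Tubulins reach 23.7% and ribosomal proteins 12.8% in library 5, while synaptic vesicle symbols are lowest there.

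Transcription factors made up a small share of the RNA, led by Klf7 and by homeodomain factors. By symbol, 749 transcription factors were matched, of which 242 were expressed throughout (32.3%, against 37.9% of all symbols and 42.2% of protein-coding ones), 56 reached 1 TPM in 4 libraries and 288 reached it in none. Those expressed throughout had a median level of 18.7 TPM, and 24 exceeded a median of 100 TPM. The whole class took 1.48% ± 0.443 (SD, n = 5) of the TPM. Klf7, a zinc finger factor of axon growth (chr1:64029448-64122345, minus strand), had the highest median of the class, at 1798, 626, 1511, 2736 and 305 TPM. It was first in 3 of the 5 libraries, was lowest in library 5, and the next member of the KLF and SP family, Klf6, had a median of 35.9 TPM. Tfap2d, an AP-2 factor, stood at 344, 2929, 449, 229 and 129.7 TPM, so that 1 library lay far above the other 4. Barhl2, a homeodomain factor of ganglion and amacrine cells, stood at 771, 302, 661, 450.2 and 294 TPM.

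The POU family held several of the leading factors, and 7 of its 15 symbols were expressed throughout. Pou4f2 stood at 480.2, 243, 397, 329.9 and 45.2 TPM, a range that overlaps that of Pou4f1, whereas Pou4f3, the remaining member of the group, stood at 16.6, 79.9, 16.6, 28.7 and 24.6 TPM. Pou4f1 and Pou4f2 were both lowest in library 5, with an SD of 1.36 each on the log2 scale. In the LIM homeodomain family 2 of 12 symbols were expressed throughout, Isl1 at 196, 297, 177, 93.7 and 28.3 TPM and Isl2 at 45.4, 53.4, 90.9, 118 and 116 TPM, and 8 reached 1 TPM in no library. Isl1 led in libraries 1 to 3 and Isl2 in libraries 4 and 5, so no order between them can be given. Of the Iroquois and TALE family, 12 of 18 symbols were expressed throughout, among them Pbx3 (401, 79.6, 129, 304 and 68.1 TPM), a partner of homeodomain proteins, and Irx4 (19.8, 11.6, 9.32, 142 and 56.3 TPM). Pax6, an eye field factor that ganglion and amacrine cells retain, stood at 349, 265, 328, 227 and 70.4 TPM and was the only 1 of the 9 paired box symbols expressed throughout.

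Zinc finger, nuclear receptor and HMG factors followed. Ebf3, a factor of ganglion cell subtypes, stood at 548, 228, 304, 827 and 22.5 TPM and Ebf1 at 323, 238, 305, 113 and 96.4 TPM, with Ebf3 the more variable. Scrt1, a neuronal repressor, stood at 517, 322, 137, 329.9 and 144 TPM. Thra, the thyroid hormone receptor alpha, stood at 223, 204, 361, 285 and 127 TPM and led the nuclear receptors in 4 libraries. Rorb, an orphan nuclear receptor, led them in library 1, at 407, 111, 274, 160.3 and 27.9 TPM in libraries 1 to 5. Tox2, an HMG box protein, led its family in every library, at 329, 227, 110.0, 149.7 and 102 TPM. Sox11 and Sox4, which support neuronal differentiation and axon growth, stood at 39.4, 29.5, 58.8, 45.8 and 7.44 and at 20.04, 40.5, 55.6, 58.97 and 43.05 TPM. Sox4 was above Sox11 in libraries 2, 4 and 5 and below it in libraries 1 and 3. Atf4, a stress-response factor, ranged widely, at 109, 218, 133, 15.3 and 430.0 TPM, with library 4 lowest and library 5 highest. The factors just inside the rule were Runx1 and Tcf3, with lowest values of 1.004 and 1.02 TPM, and just outside was Mef2c, with a lowest value of 0.999 TPM.

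Receptors were led by acetylcholine and GABA receptor subunits. Of 430 receptor symbols, 132 were expressed throughout (30.7%, against 37.9% of all symbols and 42.2% of protein-coding ones), 27 reached 1 TPM in 4 libraries and 150 reached 1 TPM in no library. They had a median level of 24.4 TPM, 20 exceeded a median of 100 TPM, and the class took 0.878% ± 0.280 (SD, n = 5) of the TPM. Chrna3, the alpha3 subunit of neuronal nicotinic receptors (chr9:55010117-55026562, minus strand), had the highest median, at 1125, 519, 1128, 254 and 177 TPM. Libraries 1 and 3 were nearly equal and high, and libraries 4 and 5 were low. Chrnb3, an accessory nicotinic subunit, stood at 326, 293, 219, 286 and 41.8 TPM, even in 4 libraries and low in library 5. Chrna6 (87.9, 71.5, 88.3, 169 and 13.7 TPM), Chrna4 (111, 89.6, 40.3, 87.1 and 33.5 TPM), Chrnb4 (51.1, 43.7, 187, 126 and 43.9 TPM) and Chrnb2 (56.7, 56.4, 19.7, 32.4 and 18.7 TPM) followed. The 7 nicotinic subunits expressed throughout, of 16, thus included partners of both the beta2 and the beta4 type, and Chrna7, which forms receptors on its own, was the lowest of them at 4.66, 2.49, 5.52, 2.31 and 4.34 TPM. Of the muscarinic receptors, Chrm3 was expressed throughout, with a highest value of 21.2 TPM, and the other 4 reached 1 TPM in no library.

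GABA receptors came next in level. Of 19 GABA-A receptor subunits, 9 were expressed throughout, beside 42.2% of protein-coding symbols. Gabrg3, a gamma subunit, stood at 774, 245, 443, 220.3 and 136 TPM, highest in library 1 and lowest in library 5. Among alpha subunits, Gabra5 stood at 232, 210.3, 159, 82.5 and 24.4 TPM and Gabra2 at 101, 151, 126, 117 and 45.8 TPM. Gabra5 was the higher in libraries 1 to 3 and Gabra2 in libraries 4 and 5. Gabbr2, a subunit of the metabotropic GABA-B receptor, was the steadiest of the leading receptors, at 601, 370.3, 515, 374 and 399 TPM (SD 0.31 on the log2 scale), and exceeded its partner Gabbr1, at 345, 197, 168, 211 and 95.97 TPM, in each library. For glycine, Glrb, the anchoring beta subunit, stood at 66.3, 75.5, 51.4, 30.1 and 7.37 TPM and Glra2, the alpha subunit of immature neurons, at 97.9, 36.02, 37.5, 9.58 and 12.7 TPM, while Glra1, the adult alpha subunit, did not exceed 0.722 TPM.

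Every AMPA receptor subunit was expressed throughout, and the NMDA receptor was represented mainly by its obligatory subunit. Grin1, which all NMDA receptors contain, stood at 373, 197, 286, 465 and 255 TPM, highest in library 4 and lowest in library 2. Grin2b, the subunit of immature receptors, stood at 34.6, 43.9, 31.6, 14.6 and 12.6 TPM and Grin2a, that of mature receptors, at 13.4, 6.74, 2.06, 9.19 and 3.12 TPM, so Grin2b was the higher in each library. Among AMPA subunits Gria4 (166, 135, 118, 61.8 and 14.1 TPM) led in 4 libraries and Gria2 (161, 90.2, 154, 27.8 and 12.3 TPM), which makes the channel impermeable to calcium, in library 3. Both were low in libraries 4 and 5. Grik5, a kainate subunit, led its family throughout and went against the general order, at 148, 112, 47.9, 194 and 284 TPM, highest in library 5. Of the metabotropic glutamate receptors, 5 of 8 were expressed throughout, among them Grm7 (39.9, 19.9, 30.3, 56.4 and 7.64 TPM) and Grm3 (40.1, 30.4, 29.8, 12.2 and 12.4 TPM).

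Among receptor families of more than 10 symbols, guidance receptors had the greatest share of members expressed throughout, 23 of 28. Lingo1, a co-receptor that limits axon growth, stood at 326, 316, 395, 484 and 188 TPM and led in 4 libraries. Robo2, a Slit receptor of ganglion cell axons, stood at 218, 306, 255, 110.0 and 23.3 TPM, above Robo1 (88.99, 59.5, 31.1, 42.4 and 5.05 TPM) in every library. Plxna1, a semaphorin receptor component, stood at 189.7, 174, 113, 157 and 60.8 TPM, and Dcc, a netrin receptor used at the optic disc, at 27.8, 27.4, 14.4, 16.4 and 5.69 TPM. Rtn4r, the Nogo receptor, was the most uneven member, at 20.4, 417, 16.9, 249 and 39.98 TPM, with libraries 2 and 4 high. Of 14 ephrin receptors 9 were expressed throughout, with the highest medians for Epha10 (156, 37.02, 280.3, 259 and 176 TPM) and Epha5 (83.5, 77.5, 71.1, 40.6 and 11.5 TPM), and Ephb1, which steers ganglion cell axons at the chiasm, stood at 23.4, 12.2, 26.99, 12.6 and 15.4 TPM. Ntrk2, the BDNF receptor, stood at 91.8, 80.7, 103, 53.9 and 15.6 TPM and Vipr2, a receptor for the peptides VIP and PACAP, at 222, 238, 129, 82.2 and 85.2 TPM. Htr1b, a serotonin receptor of immature ganglion cell terminals, led the monoamine receptors by median, at 159, 48.5, 90.2, 22.9 and 62.9 TPM. Adora1, the inhibitory adenosine receptor, stood at 131, 76.7, 272, 171 and 57.8 TPM.

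Some receptors of the class are also microglial. P2ry12, a microglial purine receptor, was expressed throughout, at 59.2, 20.1, 1.41, 42.4 and 2.98 TPM, and was lowest in library 3. Csf1r had the highest median of the growth factor receptors but fell under 1 TPM in library 3, where Alk led that family. Both were lowest in library 3, as was the sum of the microglia and macrophage list given above. Just inside the rule was the receptor Fzd1, with a lowest value of 1.02 TPM, and those just outside were Ngfr and Prlr, with lowest values of 0.9997 and 0.992 TPM.

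Channels were expressed throughout in 110 of 263 cases (41.8%, against 37.9% of all symbols and 42.2% of protein-coding ones), a share near that of all protein-coding symbols, 24 reached 1 TPM in 4 libraries and 67 reached 1 TPM in no library. The median level was 27.1 TPM, 15 exceeded a median of 100 TPM, and the class took 0.623% ± 0.180 (SD, n = 5) of the TPM. No channel family had the same leading member in all 5 libraries. Cacnb3, a cytoplasmic beta subunit of voltage-gated calcium channels, had the highest median, at 261, 147, 673, 448 and 292 TPM, with library 3 highest. The pore-forming subunits Cacna1a (P/Q type), at 141, 119, 466, 45.3 and 38.6 TPM, and Cacna1b (N type), at 53.7, 57.3, 52.96, 60.1 and 28.3 TPM, serve transmitter release, and Cacna1b was the steadier of them. Cacng5 and Cacng7, auxiliary subunits that also act on AMPA receptors, stood at 165, 153, 164, 101 and 44.9 and at 418, 255, 123, 85.9 and 62.8 TPM. Both had their lowest value in library 5.

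Sodium channels were represented by several pore subunits at similar levels. Scn2a1 (Scn2a), a channel of immature axons, stood at 165, 132, 166, 64.4 and 21.6 TPM, Scn3a, typical of young neurons, at 187, 80.5, 93.1, 39.6 and 10.1 TPM, and Scn8a, the channel of mature nodes and initial segments, at 139, 72.01, 82.6, 39.3 and 23.3 TPM. The 3 ranges overlapped widely, and each fell to its lowest value in library 5. Scn3b, a beta subunit, stood at 115, 101, 308, 133 and 20.7 TPM, also lowest there and highest in library 3. Of 54 voltage-gated potassium channel symbols, 26 were expressed throughout, beside 42.2% of protein-coding symbols. Kcnc1, a fast repolarizing channel, stood at 272, 96.99, 70.7, 202 and 86.5 TPM and led the family in libraries 1 and 4, and Kcnip1, an auxiliary subunit, stood at 162, 109, 105, 81.9 and 55.05 TPM and led it in library 3. Kcnma1, the large-conductance calcium-activated channel, stood at 136, 72.2, 38.7, 63.9 and 10.01 TPM. Hcn3 (65.3, 78.8, 32.03, 171 and 53.5 TPM), a channel opened by hyperpolarization, led its family in 4 libraries.

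Other channels of the class included those of membranes other than the cell surface. Vdac1, a pore of the outer mitochondrial membrane, stood at 262, 317, 504, 115 and 171 TPM and Vdac3 at 87.4, 247, 449, 186 and 54.3 TPM. Gjd2, the gap junction protein connexin 36, stood at 86.7, 134, 216, 18.2 and 25.3 TPM, low in libraries 4 and 5. Trpm3, a cation channel, stood at 259, 136, 114, 149.7 and 38.8 TPM, and Lrrc8a, the obligatory subunit of volume-regulated anion channels, at 131, 56.7, 128, 157 and 13.1 TPM. Both were lowest in library 5. The photoreceptor channel subunits Cngb1 (0, 0.319, 0.0945, 5.74 and 44.6 TPM) and Cnga1, which did not exceed 2.17 TPM, were not expressed throughout, and Cngb1 was highest where rod symbols were. The channels just inside the rule were Kcnip3 and Kcnv1, with lowest values of 1.01 and 1.05 TPM, and those just outside were Trpc5 and Gjc1, with lowest values of 0.990 and 0.989 TPM.

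Adhesion genes had the largest share of members expressed throughout of the 4 classes, 224 of 367 (61.0%, against 37.9% of all symbols and 42.2% of protein-coding ones), 37 reached 1 TPM in 4 libraries and 46 reached 1 TPM in no library. Their median level was 34.2 TPM, 52 exceeded a median of 100 TPM, and they took 2.27% ± 0.676 (SD, n = 5) of the TPM. The class was assembled from neuronal and other adhesion families, so its share depends on which families it holds. L1cam, an immunoglobulin-family protein of axon bundles (chrX:73853778-73880838, minus strand), had the highest median, at 1857, 945, 1536, 1572 and 685 TPM, although Thy1 was higher in libraries 2 and 5 and Cd24a in library 4. Aplp1 and App, members of the amyloid precursor family, stood at 547, 888, 1083, 1413 and 1129 and at 1109, 883, 796, 305 and 216 TPM. App was low in libraries 4 and 5 and Aplp1 was lowest in library 1. Cd24a, a surface glycoprotein of immature neurons, stood at 771, 565, 1429, 1853 and 178 TPM, and Ncam1, the neural cell adhesion molecule, at 812, 497, 557, 478 and 168 TPM. Ncan, a secreted proteoglycan of the neural matrix, stood at 696, 293, 504, 999.7 and 190.1 TPM.

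Contactins and neurexins were well represented. Cntn1, a GPI-anchored partner of L1 proteins, led the contactins in all 5 libraries, at 829, 512, 652, 194 and 69.1 TPM. Cntn5, a contactin of ON-OFF direction-selective cells, stood lower, at 23.01, 13.9, 67.4, 135 and 9.37 TPM, with library 4 highest. Of the contactin family, 8 of 13 symbols were expressed throughout. Nrxn2, a presynaptic organizer, stood at 98.9, 112, 124, 115 and 108 TPM and its paralog Nrxn3 at 78.7, 61.4, 70.3, 64.7 and 8.95 TPM. Nrxn2 was almost level across libraries as deposited (SD 0.12 on the log2 scale, and 0.58 after rescaling to 1 median), whereas Nrxn3 (SD 1.26) was lowest in library 5. Nlgn3, a postsynaptic partner of neurexins, stood at 416, 378, 161, 290.3 and 101 TPM and Nlgn2, the neuroligin of inhibitory synapses, at 136, 237, 121, 83.4 and 61.2 TPM. Sema6a, a transmembrane semaphorin of direction-selective circuits, stood at 980.1, 482, 460.4, 610.3 and 77.5 TPM, more than the other ephrins and semaphorins in 4 libraries.

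Cadherins and protocadherins supplied many members at moderate levels. Clstn1, a calsyntenin, led the cadherin family in all 5 libraries, at 319.9, 209, 335, 380.0 and 259.6 TPM. Of the classical cadherins, Cdh2 (N-cadherin) stood at 249.6, 112, 85.8, 216 and 18.1 TPM and Cdh4 at 124, 72.9, 91.9, 91.9 and 5.44 TPM, beside the Cdh6 levels given above. Cdh2 and Cdh4 were both far lower in library 5 than elsewhere, and Cdh6 was not. Fat3, an atypical cadherin that shapes retinal dendrites, stood at 282, 200.3, 196, 117 and 50.2 TPM. Of 70 protocadherin symbols 47 were expressed throughout. Pcdh10 (631, 205, 252, 118 and 38.1 TPM) and Pcdhac2 (339, 444, 176, 96.9 and 30.8 TPM), a member of the alpha cluster, had the highest medians, and Pcdh1 (264, 126, 167, 257 and 148 TPM) led in libraries 4 and 5. The clustered genes share exons at their 3′ ends, so reads cannot always be assigned to 1 of them. Of 27 integrins 7 were expressed throughout, and Itga3 (50.4, 46.6, 89.5, 152 and 35.3 TPM) led them in 4 libraries. Ptprs, a receptor phosphatase that binds matrix proteoglycans, was steady, at 183, 222, 152, 146 and 111 TPM. The adhesion genes just inside the rule were Fat1 and Itga4, with lowest values of 1.01 and 1.02 TPM, and those just outside were Ptprg and Pcdhga3, with lowest values of 0.974 and 0.959 TPM.

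**Figure D5:**
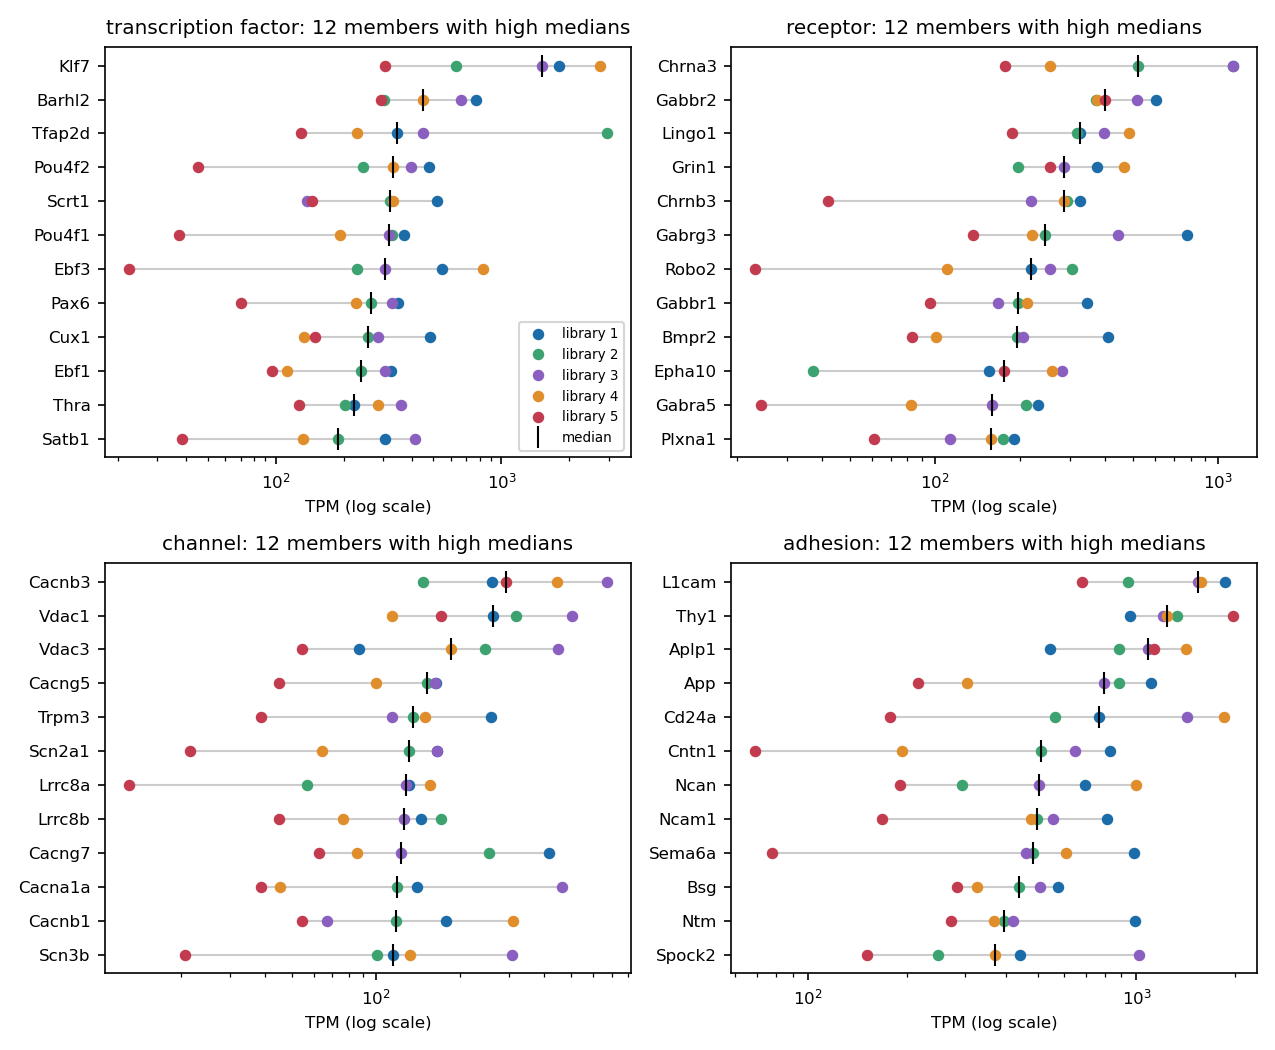
TPM (log axis) of 12 members of each class with high medians among those at 1 TPM or more in all 5 wild-type libraries, leaving out genes not reported here; coloured points are libraries, black ticks medians and grey lines the range. Library 5 is the lowest point for most genes, while Gabbr2 and Thy1 keep narrow ranges.

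Leading members of a family were stable for some families only. Of 53 families in the 4 classes, 14 had the same leading member in all 5 libraries: 6 of 15 transcription factor families, 6 of 20 receptor families, 0 of 8 channel families and 2 of 10 adhesion families. Among the 14 were those led by Klf7, Pax6, Gabbr2, Grin1, Grik5, Vipr2, Cntn1 and Clstn1. Families with many members at close levels, such as basic helix-loop-helix factors, changed leader from library to library.

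Levels of single genes varied widely between the 5 libraries, and this sets how finely they can be ranked. For symbols expressed throughout, the median SD of log2(TPM + 1) was 1.06, the median ratio of the highest to the lowest library was 7.16, and 21.99% of symbols stayed within a 4-fold range. The spread was 1.04 for medians of 1 to 10 TPM, 1.09 for 10 to 100 TPM, 0.96 for 100 to 1000 TPM and 0.83 for 1000 TPM or more, so abundant transcripts were only somewhat steadier. Without libraries 4 and 5 the overall value was 0.66. Spearman's rank correlation between pairs of libraries over all 23258 symbols lay between 0.824 and 0.903, as a description across genes. That set includes the 8429 symbols that reached 1 TPM in no library. Over the symbols expressed throughout, Pearson's correlation of log2(TPM + 1) between pairs lay between 0.591 and 0.796. Of the 100 most abundant symbols, 31 were shared by all 5 libraries, and 50 were shared by the 4 libraries other than library 5.

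A small set of abundant transcripts hardly varied in TPM, though this held on the deposited scale only. Ppp2r1a, the scaffold subunit of protein phosphatase 2A, stood at 495, 495, 555, 498 and 552 TPM in libraries 1 to 5 (SD 0.09 on the log2 scale). Rbpms2, a paralog of Rbpms and a ganglion cell marker, stood at 370.5, 310.3, 396, 442 and 414 TPM (SD 0.19), with library 5 within the range of the others, unlike Rbpms. Uchl1, an abundant neuronal ubiquitin hydrolase, stood at 1585, 1442, 1184, 1292 and 1675 TPM, Bin1, a membrane-bending protein, at 122, 88.1, 103, 109 and 117 TPM, and Gnas, the stimulatory G protein alpha subunit, at 2275, 2290, 3044, 2946 and 2275 TPM. These were the steadiest symbols with a median of 100 TPM or more, together with Nrxn2, Tpt1 and Eif3l. After the libraries were rescaled to 1 median the SD was 0.62 for Ppp2r1a and 0.69 for Rbpms2, and 0 of the 8 were still among the 8 steadiest of 1242 symbols. Gabbr2 had an SD of 0.49 on that scale, while Pou4f1 narrowed from 1.36 to 0.82. The most variable of that level were Ly86, Tyrobp, Csf1r and C1qc, all on the microglia and macrophage list, with Lgals1, Sepp1, Ndufa7 and Scand1. Lgals1, a galectin, stood at 93.01, 109, 345, 0.458 and 217 TPM, so library 4 alone lacked it. Of 1309 symbols with a median of 100 TPM or more, 8 were listed at 0 in at least 1 library, and Ly86 and Tyrobp, both at 0 in library 3, were those that are not predicted genes or small RNAs.

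Promoters of genes expressed throughout held more CG dinucleotides than those of genes below 1 TPM in all 5 libraries. A promoter sequence of 250 bases, taken before the first start listed for a symbol, was found for 16201 of 20233 protein-coding symbols. The ratio of observed to expected CG dinucleotides had a median of 0.77 for symbols expressed throughout (n = 6895), 0.20 for symbols below 1 TPM in all 5 libraries (n = 5205) and 0.57 over all. A ratio of 0.6 or more was found for 74.1% of the first, 12.3% of the second and 47.7% of all. The hexamer TATAAA, searched on both strands (as TTTATA on the other), occurred in 5.44% of the first, 23.2% of the second and 12.1% of all. Among symbols expressed throughout, it occurred in 7.14% (71 of 995) of those with a median of 100 TPM or more. For a median of 1000 TPM or more it occurred in 13.3% (8 of 60), so the low share did not extend to the most abundant symbols. By class, the median ratio was 0.73 for receptors expressed throughout and 0.32 for receptors below 1 TPM in all 5, 0.62 against 0.27 for channels, 0.64 against 0.45 for adhesion genes and 0.76 against 0.67 for transcription factors. Transcription factors below 1 TPM in all 5 thus had a higher ratio than receptors and channels below 1 TPM in all 5. The promoters below 1 TPM in all 5 numbered 116 for receptors, 48 for channels, 20 for adhesion genes and 198 for transcription factors. Of the sequences printed above, that of Pou4f1 had a ratio of 1.24, that of Cartpt 0.81, that of Slc17a6 0.40 and that of Satb1 0.24, and none held TATAAA. A match or its absence describes these letters in this window and says nothing about a factor.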

How the data were processed

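The deposited table holds log10(TPM + 1) values made by the authors, for 23746 lines. TopHat2 2.0.10, Cufflinks and the build mm10 are named per the submitters' processing notes; counting, annotation, filtering and strandedness: not given in the sources used here. The base and offset were read from the values: on base 10 with an offset of 1, each library summed to 1000000 TPM. From these values, 26 lines named by a number (0.0438% to 0.198% of the TPM) were dropped and 240 symbols on more than 1 line were summed. Classes and families were matched by symbol patterns, with 23014 symbols found in RefSeq as symbol or synonym. Named genes were the 20 highest medians, the 8 highest per class and each family's leader, the marker genes, the 8 steadiest and 8 most variable at a median of 100 TPM or more, and the 2 members per class on each side of the threshold; further family members, Gap43, Stmn2, Sncg and the genes of the last section were chosen after their values were seen. Some of these genes are not reported here. No comparison of groups was tested, since 1 group is described, and libraries far from the other 4 were found with Dixon's critical value. GC content and length came from GENCODE M21 transcripts, promoters from RefSeq. Scripts (Python 3.11.15, pandas 2.3.3) were tested on simulated data. TPM keeps no depth, so depth is unknown. The members and lists were chosen with earlier results of these data known.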

Additional observations from a re-analysis of the deposited data

Results flagged for a closer look

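In groups of 5 libraries, a library was singled out where its gap to the nearest other library was more than 0.71 of the whole range, the 95% critical value of Dixon's test. This was tried on 207 values, 170 of them levels of named genes, with levels and sums of levels on the log2(TPM + 1) scale, and 20 were found. Chance alone is known to single out about 1 in 20 such groups, but that rate does not apply to genes named because of these same values. Of those found, Tyrobp, Lgals1 and Scand1 were among the most variable symbols. Fat1 and Ptprg were taken for a lowest value near 1 TPM. For 4 of the 20 (Chat, Gfap, Hba-a1 and Hba-a2) the other 4 libraries were all listed at 0, where any level above 0 is singled out whatever its size, so these 4 are given as values only.

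Library 5 stood apart 10 times. Its tubulin and microtubule share was 23.7% and its oxidative phosphorylation share 5.35%, both above the other 4 libraries. The lone low values of library 5 were Pou4f1 at 37.4 TPM, Pax6 at 70.4 TPM, Chrnb3 at 41.8 TPM, Stmn2 at 569 TPM, Ptprg at 0.974 TPM and the summed amacrine markers at 149 TPM. Its lone high values were Chat at 1.68 TPM and Gfap at 2.47 TPM, each listed at 0 in the other 4.

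Library 4 stood apart 5 times. Cartpt was low there, at 56.8 TPM, while Satb1, at 132 TPM, was within the range of the other libraries. Lgals1 was at 0.458 TPM, and Tac1, a neuropeptide precursor, was high, at 111 TPM. The globin genes Hba-a1 and Hba-a2 were at 1.11 and 37.7 TPM in library 4.

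Library 3 stood apart with Tyrobp, from the microglia and macrophage list, at 0 and with Apoe, from the Muller glia list, at 19.5 TPM, and its microglia and macrophage sum was the lowest of the 5. Library 1 stood apart with Fat1 high, at 12.5 TPM, with Scand1 low, at 1.39 TPM, and with an actin cytoskeleton share of 1.25%, the lowest of the 5.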

How the results depend on the processing

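Of 251 recomputed counts, shares and spreads, 230 stayed within 1.5 times the reported count or within the spread between libraries. For the shares, leaving out libraries cannot move the mean by as much as that spread, so those recomputations could not fail. The mean share of tubulins and microtubule proteins, 8.94%, was 5.24% without library 5 and still counted as unmoved. The tally is therefore no measure of stability. A threshold of 5 TPM in place of 1 left 5493 symbols expressed throughout, with 132 transcription factors, 80 receptors, 72 channels and 146 adhesion genes. Requiring a mean of 1 TPM, in place of 1 TPM in every library, gave 13262 symbols, with 388 transcription factors, 236 receptors and 170 channels. Rescaling the TPM without ribosomal protein and predicted genes raised the mean shares of actin cytoskeleton to 1.96%, translation factors to 1.197%, proteasome and ubiquitin to 1.07% and spliceosome symbols to 0.693%. An offset of 0.1 TPM gave a median SD of 1.21 at 1 to 10 TPM. Leaving out each library in turn, the median SD ranged from 0.66 to 1.02 at 100 to 1000 TPM and from 0.58 to 0.85 at 1000 TPM or more, in both cases lowest without library 5. Without libraries 4 and 5 together, an alternative chosen after seeing the data, the median SD was 0.66 over all levels, 0.85 at 1 to 10 TPM, 0.66 at 10 to 100 TPM, 0.51 at 100 to 1000 TPM and 0.46 at 1000 TPM or more, and 278 transcription factors, 156 receptors, 130 channels and 249 adhesion genes were expressed throughout. Between 45 and 47 of 53 families kept their leading member when 1 library was left out. Of 1062 recomputed medians of 177 named genes, 1056 moved by no more than 1 SD between libraries. Leaving out 1 of 5 libraries cannot move a median by more than that SD, so those recomputations could not fail. The medians that moved further all came from rescaling to 1 median and were those of Bin1, Cacnb3, Gnas, Rn45s, Tpt1 and Uchl1. Rescaling took Cacnb3 to 511 TPM and Rn45s to 87179 TPM. TPM keeps no read depth, so a value near 1 TPM cannot be separated from counting noise, and a listed 0 can be a failed estimate. The libraries are 5, amplified from few cells, and no outside measure of RNA quality was used.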

Other observations

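Symbols that all but 1 library held at 20 TPM or more, and that fell under 2 TPM in the remaining library, were counted after the values had been seen, leaving out predicted genes and small RNAs. There were 2 for library 1, 0 for library 2, 19 for library 3, 20 for library 4 and 6 for library 5. Of the 19 for library 3, 7 were on the microglia and macrophage list: C1qb, C1qc, Csf1r, Laptm5, Ly86, Trem2 and Tyrobp. None of the symbols for libraries 1, 4 and 5 was on that list. Among the 12 of library 3 that are on no list, Fcrls, a scavenger receptor gene known from microglia, stood at 26.6, 24.8, 0, 73.2 and 59.9 TPM in libraries 1 to 5, Sepp1, a selenoprotein precursor, at 219, 108, 1.22, 425 and 22.01 TPM and Ctsz, a lysosomal cathepsin, at 69.98, 33.6, 0, 41.4 and 75.6 TPM. The remainder included general genes such as Polr2g, an RNA polymerase subunit, at 47.03, 38.8, 0, 226 and 39.2 TPM. Absence from a single library was therefore seen both for microglial genes and for genes that most cells use.

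Symbols at 20 TPM or more in libraries 4 and 5 and under 5 TPM in libraries 1 to 3 numbered 13. Nr2e3 and Pde6g were on the rod list. Otx2, a factor of photoreceptors and bipolar cells, stood at 0, 1.34, 2.14, 120.3 and 115 TPM, and Rbp3, the retinoid-binding protein of the photoreceptor matrix, at 0, 1.58, 1.01, 136 and 136 TPM. The set also held Blvrb, a biliverdin reductase, at 3.16, 4.07, 0.667, 139 and 100.4 TPM.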
